A study of Caenorhabditis elegans with 6 samples.

Results

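The genes described are 10 receptors for dopamine, serotonin, tyramine and octopamine in the nematode Caenorhabditis elegans: dop-1, dop-2, dop-3, dop-4, ser-1, ser-2, ser-4, ser-7, tyra-2 and octr-1. They were taken by their symbols in the platform's gene table, which gave each of them 1 probe set of its own, so they make up 10 of the 26192 probe sets tested. A probe set is the group of array probes read together as 1 gene. Hermaphrodites of the wild-type strain N2 grew on bacterial plates for 48 h from the first larval stage (L1) to the last (L4), and then spent 24 h at 20 °C in 50% M9, a salt buffer. The control group (3 arrays) had the buffer alone, and the exposed group (3 arrays) had 500 µg/mL BSA-SPIONs added to it, which are superparamagnetic iron oxide particles under a single layer of bovine serum albumin. All values come from whole worms, of which neurons and each other tissue are a part, and fewer cells of a type cannot be told apart from less RNA per cell. No array had albumin alone or bare particles, so effects of the core, of its protein coat and of the dose of particles cannot be told apart either. The labels do not say whether the replicates were separate cultures, so the p-values cover the spread among these arrays only, and that spread may be technical.

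Biogenic amines are small transmitters that neurons release to set the state of circuits, muscle and glands for seconds to minutes. In worms dopamine slows movement on food, serotonin drives egg laying and feeding, and tyramine and octopamine act in escape and in the response to lack of food. Most of their receptors span the membrane 7 times and act through G proteins: stimulatory ones raise cyclic AMP through adenylyl cyclase, inhibitory ones act through the G protein Go/Gi, and Gq activates phospholipase C. Of the 10 receptors, dop-1, dop-4 and ser-7 are of the stimulatory type, ser-1 signals through Gq, and dop-2, dop-3, ser-4, ser-2, tyra-2 and octr-1 are of the inhibitory type.

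The array values are log2 expression values from the authors' RMA processing, so a difference of 1 is a 2-fold difference. Array medians lay between 3.97 and 3.98 in controls and between 3.70 and 3.89 in exposed worms. Control 3 correlated less with the other controls (r of 0.963 and 0.964 over probe sets, themselves no independent replicates) than these did with each other (r of 0.988). Its title calls it replicate 3, while another of its labels gives it the number of control 2. In limma, 3.66% of all probe sets passed an adjusted p under 0.05, 1.06% as higher and 2.6% as lower in exposed worms. The number of calls in the whole table rested on single arrays and ran from 49 without exposed 1 to 1996 without control 3, with 66, 53 and 289 without control 1, control 2 and exposed 3.

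None of the 10 receptors passed the adjusted threshold in limma, in either direction. At an unadjusted p under 0.05, 1 of them (tyra-2) was lower and 0 were higher, where 12.4% and 10.1% of all probe sets were. The members' median log2 change was -0.23, against 0.05 over all probe sets tested, and 7 of the 10 had a negative change as deposited (44.7% of all probe sets did), but 5 of 10 after a second quantile normalization or with equal array medians. The 3 exposed arrays lay entirely below the 3 controls for tyra-2 and entirely above them for dop-4, and the groups overlapped for the other 8. Over all probe sets, 13.5% were separated as lower and 14.6% as higher, so that 1 of 10 in each direction is near the background.

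**Figure D1:**
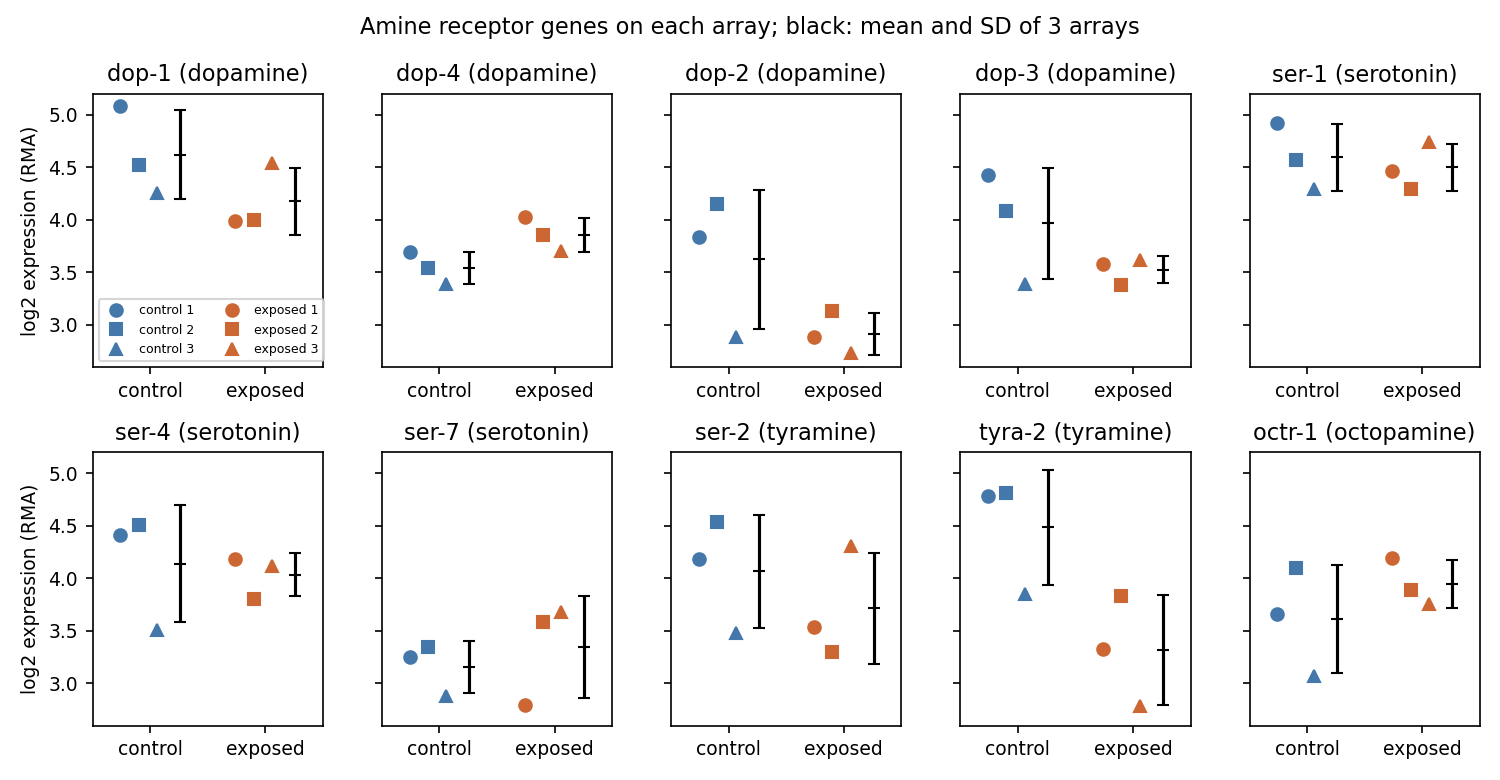
Log2 expression of each receptor on every array (blue for control, orange for exposed, circle, square and triangle for replicates 1, 2 and 3), with the mean and SD of 3 arrays in black. The blue triangle, control 3, is the lowest control in all 10 panels, and the groups are separate in those of dop-4 and tyra-2.

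Dopamine is read by 2 kinds of receptor here, D1-like (dop-1 and dop-4) and D2-like (dop-2 and dop-3). In worms dop-1 and dop-3 act in opposite directions on motor neurons to set the speed of movement. The values of dop-1 (F15A8.5) were 5.08, 4.52 and 4.26 on controls 1, 2 and 3 and 3.98, 4.0 and 4.54 on exposed 1, 2 and 3. Exposed 3 thus lay above control 2, and the log2 change of -0.45 (95% interval -1.09 to 0.20, adjusted p = 0.384) did not pass. The other D1-like gene, dop-4 (C52B11.3), belongs to a type found in invertebrates. Its values were 3.69, 3.54 and 3.39 on the controls and 4.02, 3.85 and 3.70 on the exposed arrays. All 3 exposed arrays were above every control, though the lowest exposed array (3.70) was almost level with the highest control (3.69). The log2 change was 0.32 (95% interval -0.11 to 0.75, adjusted p = 0.355), from 3.54 ± 0.15 to 3.86 ± 0.16 (SD, n = 3), and it was positive in each of the 14 alternative settings that kept this probe set, between 0.24 and 0.52.

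The D2-like receptor dop-2 (K09G1.4) is found on the dopamine neurons themselves, where it acts as an autoreceptor. It had values of 3.84, 4.15 and 2.88 on controls 1, 2 and 3 and of 2.88, 3.13 and 2.73 on the exposed arrays. Controls 1 and 2 were above every exposed array, while control 3 lay among them. The log2 change was -0.71 (95% interval -1.49 to 0.07, adjusted p = 0.260). Without control 3 it was -1.08 with an adjusted p of 0.034, so 1 control array decided whether dop-2 passed. It also passed with array weights (adjusted p = 0.0465) and without both arrays numbered 3 (adjusted p = 0.0459), the latter chosen after seeing the data. In these settings 8.18% and 5.69% of all probe sets were called lower. The same pattern in dop-3 (T14E8.3) was smaller: its values were 4.42, 4.08 and 3.39 on the controls and 3.58, 3.38 and 3.62 on the exposed arrays. Its log2 change of -0.44 (95% interval -1.09 to 0.21, adjusted p = 0.399) was -0.73 without control 3 and did not pass there either.

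Serotonin receptors had the smallest changes of the 10. The gene ser-1 (F59C12.2), a receptor of the 5-HT2 class that acts in egg laying, was at 4.92, 4.57 and 4.29 on controls 1, 2 and 3 and at 4.46, 4.29 and 4.74 on the exposed arrays. Both groups covered nearly the same range, and the log2 change was -0.10 (95% interval -0.63 to 0.44, adjusted p = 0.840). The inhibitory receptor ser-4 (Y22D7AR.13), of the 5-HT1 class, was at 4.41, 4.51 and 3.50 on the controls and at 4.18, 3.80 and 4.12 on the exposed arrays. All 3 exposed arrays lay between control 3 and the other controls, with a log2 change of -0.11 (95% interval -0.80 to 0.59, adjusted p = 0.864). The stimulatory receptor ser-7 (C09B7.1), of the 5-HT7 class, acts in the pharynx, the feeding organ, where serotonin raises the rate of pumping. Its values were 3.24, 3.34 and 2.87 on the controls and 2.79, 3.58 and 3.67 on the exposed arrays. Exposed 1 was the lowest of all 6 arrays and the other exposed arrays were the highest, so the log2 change of 0.19 (95% interval -0.46 to 0.85, adjusted p = 0.724) rested on a split within the exposed group. The signs of ser-1 and ser-4 turned positive, at 0.11 and 0.10, with equal array medians, so no direction can be given for them.

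Tyramine is made from tyrosine, and octopamine is made from tyramine. The tyramine receptor tyra-2 (F01E11.5), which acts in sensory neurons, showed the largest difference of the 10. It was at 4.78, 4.82 and 3.85 on controls 1, 2 and 3 and at 3.33, 3.83 and 2.78 on the exposed arrays. Every exposed array was below every control, but exposed 2 lay only just under control 3. Means were 4.48 ± 0.55 and 3.31 ± 0.52 (SD, n = 3), a log2 change of -1.17 (SE 0.36, 95% interval -2.01 to -0.33, 2.25-fold) with an unadjusted p of 0.013 and an adjusted p of 0.116 in limma. Among all probe sets 11.1% had a smaller p. The change was negative in all 15 alternative settings, between -1.48 and -0.90. It passed in 4 of them, among these without control 3 (-1.48, adjusted p = 0.042), with array weights (adjusted p = 0.022) and without both arrays numbered 3 (adjusted p = 0.036). In the same order, 5.1%, 8.18% and 5.69% of all probe sets were called lower there, against 2.6% as deposited. Leaving out both arrays numbered 3 was chosen after seeing the data. The 4th setting used the replicate numbers as blocks, though they are not taken as pairs.

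The second tyramine receptor is ser-2 (C02D4.2), of the inhibitory type like tyra-2. Its values were 4.18, 4.53 and 3.47 on the controls and 3.53, 3.29 and 4.31 on the exposed arrays. Exposed 3 lay above control 1, and the groups overlapped over most of their range, with a log2 change of -0.35 (95% interval -1.19 to 0.49, adjusted p = 0.605). RefSeq lists 7 transcripts of this gene, and 1 probe set cannot separate them. The octopamine receptor octr-1 (F14D12.6) acts in sensory neurons that restrain innate immune responses. It was at 3.66, 4.10 and 3.07 on the controls and at 4.19, 3.89 and 3.75 on the exposed arrays. The exposed arrays were all above controls 1 and 3, while control 2 lay among them. The log2 change of 0.33 (95% interval -0.34 to 1.01, adjusted p = 0.538) was 0.06 without control 3.

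**Figure D2:**
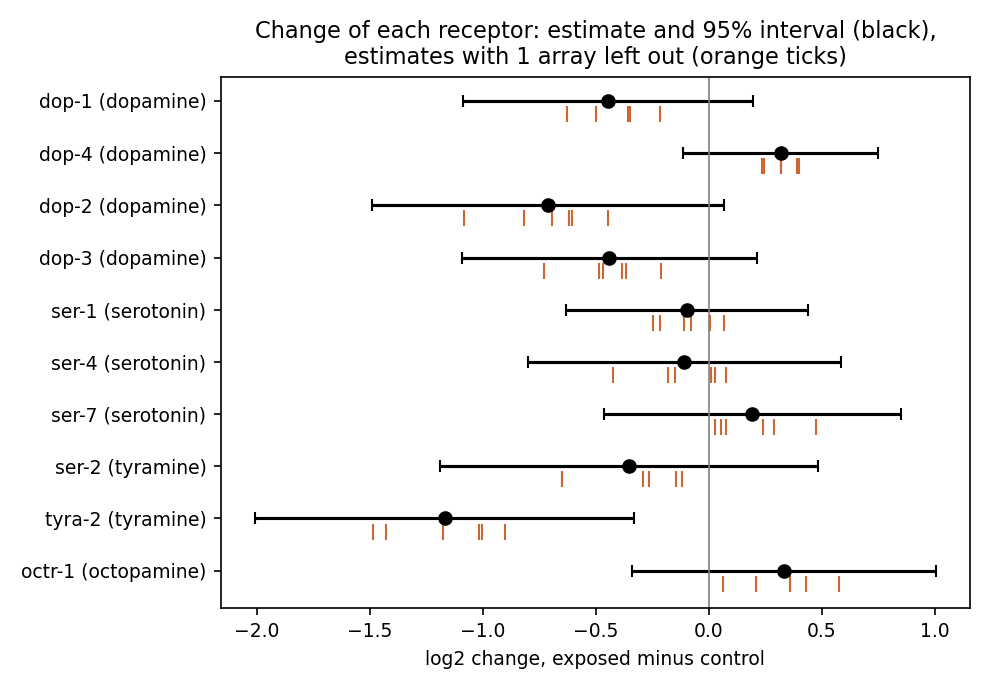
Log2 change of each receptor, exposed minus control, with its 95% interval from limma (black) and the estimates with 1 array left out (orange ticks). The interval of tyra-2, from -2.01 to -0.33, is the one that leaves out 0, and ticks lie on both sides of 0 for ser-1 and ser-4.

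Receptors of one amine were set against each other within each array, over 6 pairs. The difference between dop-1 and dop-4 was 1.40, 0.97 and 0.87 on controls 1, 2 and 3 and -0.04, 0.14 and 0.84 on the exposed arrays. Exposed worms were thus shifted toward dop-4 by 0.76 on the log2 scale on average, without overlap, and the exact two-sided permutation test gave p = 0.1, the smallest that 3 arrays against 3 allow (adjusted p = 0.6 over the 6 pairs). Exposed 3 and control 3 were close, at 0.84 and 0.87. For ser-2 against tyra-2 the difference was -0.60, -0.28 and -0.38 on the controls and 0.21, -0.54 and 1.53 on the exposed arrays, which overlap (exact permutation p = 0.3). The other 4 pairs, dop-2 with dop-3 and the 3 pairs of serotonin receptors, had shifts from -0.30 to 0.01 and exact permutation p-values from 0.4 to 1. A permutation p that cannot pass the threshold does not show that these receptors changed alike.

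The size of change that these arrays could have shown differs between the receptors. With the standard errors found (0.18 to 0.36 on the log2 scale) and the 0.0018 that was the largest unadjusted p to pass, a receptor would have needed a change from 1.83-fold (dop-4) to 3.25-fold (tyra-2) to be called. This limit holds for the unweighted fit of all 6 arrays with its standard errors. The 95% intervals of dop-4, ser-1, ser-4 and ser-7 lay within 2-fold in either direction, and those of the other 6 did not. All member values lay between 2.73 and 5.08 on the log2 scale, near the low end, where RMA compresses differences. The mean over the arrays was at or above the median of all probe sets (3.87) for dop-1, ser-1, ser-4, ser-2 and tyra-2 and below it for the other 5. Detection calls were not used here, so whether the dimmest of them lie above background was not tested.

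Control 3 was the lowest of the 3 controls for all 10 receptors, as it was for 37.8% of all probe sets. It lay under the mean of controls 1 and 2 by a median of 0.84 for the receptors (difference of -0.84), with dop-2 (-1.11) farthest and dop-4 (-0.23) nearest. Over all probe sets control 3 lay above that mean by a median of 0.02. For 9 of the 10, all but tyra-2, control 3 was at or below the highest exposed array, as it was for 18135 of the 26192 probe sets tested. Mean levels of the 10 receptors were 4.22 on both controls 1 and 2, 3.50 on control 3, and 3.69, 3.70 and 3.80 on exposed 1, 2 and 3. Controls 1 and 2 were both above every exposed array for dop-2, dop-3, ser-4 and tyra-2 (40%, against 20.1% of all probe sets). Without control 3, dop-2 and tyra-2 were called lower, or 2 of 10, as were 5.1% of all probe sets.

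Control 3 was also low for some lists of genes that mark tissues, though not for all. Of 20 neuron markers, such as synaptic vesicle genes, 6 fell and 0 rose (30% lower, against 2.6% of all probe sets). The median log2 change was -0.98, with 18 negative and 2 positive changes. Within the list tbb-1 went the other way (log2 change 0.87, adjusted p = 0.063), with every exposed array above the controls. How far each listed gene is particular to neurons was not tested. The mean of the 20 markers was 7.69 and 7.78 on controls 1 and 2, 6.99 on control 3 and 6.34 to 6.51 on the exposed arrays. Control 3 was again the lowest control, for 19 of 20, but its mean stayed above every exposed array, unlike that of the receptors. Among them rgef-1, which is expressed throughout the nervous system, fell from 5.91 ± 0.16 to 4.06 ± 0.08 (adjusted p = 0.0073), and the release genes ric-4 and snt-1 fell by 1.95 and 2.18 on the log2 scale (adjusted p = 0.0105 and 0.012). The calls of ric-4 and snt-1 were lost without control 1, control 2 or exposed 1, and that of rgef-1 without exposed 1 (adjusted p up to 0.068). Of 12 body wall muscle markers 3 fell (dim-1, tni-1 and mup-2) and 0 rose (25% lower, against 2.6% of all probe sets). Changes were negative for 10 and positive for 2, with list means of 8.68, 8.89 and 8.24 on the controls and 7.42 to 7.90 on the exposed arrays. The 12 germline and oocyte markers all had positive changes (0 passed, 7 at an unadjusted p under 0.05, against 10.1% of all probe sets). All were lowest on control 3 among the controls, with means of 8.13, 7.99 and 7.32 against 8.03 to 8.78 on the exposed arrays. The yolk receptor gene rme-2, made in oocytes, was at 6.98, 6.98 and 6.01 on the controls and 7.93, 7.96 and 7.58 on the exposed arrays (adjusted p = 0.078), while the labels give L4, the stage at the start of the exposure, for all samples. Pharyngeal muscle markers, 6 genes, had 3 lower and 0 higher (50% lower, against 2.6% of all probe sets). All 6 of these changes were negative, with a median of -1.37, and control 3 was the lowest control for 4 of the 6. Intestine, hypodermis and sperm markers were lowest on control 3 for 4 of 9, 4 of 10 and 3 of 10 genes, near the 37.8% of all probe sets. The part of the marker lists in the receptor values was not tested.

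**Figure D3:**
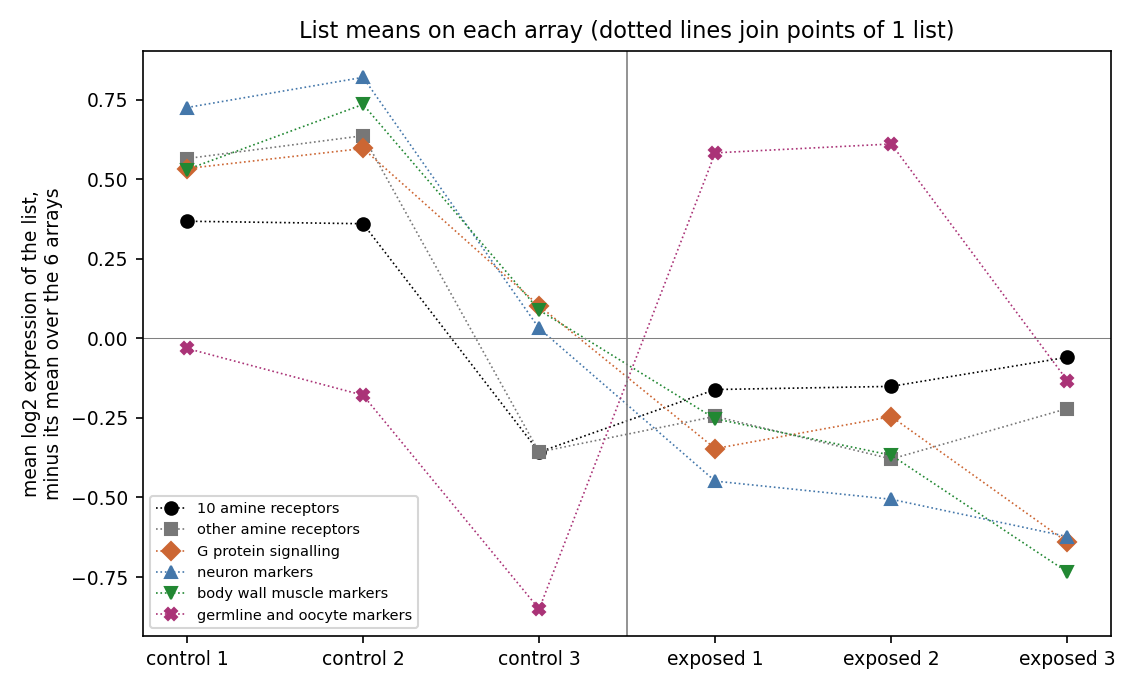
Mean log2 expression of 6 gene lists on each array, minus the list's own mean over the 6 arrays. The receptors (black circles) lie lowest on control 3, below the exposed arrays, whereas neuron and muscle markers and G protein genes on control 3 lie above all exposed arrays.

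The other receptors for these amines were a list of 10, with both G protein-coupled receptors and amine-gated channels. None passed, and 2 were lower at an unadjusted p under 0.05, as were 12.4% of all probe sets. The log2 change was below 0 for all 10 (median -0.44), against 44.7% of all probe sets. The dopamine receptor homolog dop-5 was at 4.13, 4.24 and 3.28 on the controls and at 3.35, 2.71 and 2.42 on the exposed arrays (log2 change -1.06, adjusted p = 0.129). The tyramine-gated chloride channel gene lgc-55 was at 4.61, 4.06 and 3.51 on the controls and at 2.90, 3.17 and 3.34 on the exposed arrays (log2 change -0.92, adjusted p = 0.131). Its groups were separate, and those of the other 9 were not, where 13.5% of all probe sets were separated as lower. The serotonin-gated channel gene lgc-50 and the serotonin receptor gene ser-5 had changes of -0.80 and -1.04 (adjusted p = 0.257 and 0.274). All 10 were lowest on control 3 among the controls, and without that array 4 of them were called lower, as were 5.1% of all probe sets.

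The enzymes that make the amines did not pass. Of 9 genes, 5 had a positive and 4 a negative change, with a median of 0.01. The steps of octopamine synthesis had the most positive ones: tbh-1, which converts tyramine to octopamine, was at 8.75, 8.66 and 8.06 on the controls and 9.08, 8.76 and 9.16 on the exposed arrays (log2 change 0.51, adjusted p = 0.262). All 3 exposed arrays were above the controls, as for 14.6% of all probe sets. The gene tdc-1, which makes tyramine from tyrosine, had a change of 0.41 (adjusted p = 0.636), which turned to -0.08 without control 3. The gene cat-4, whose enzyme makes the cofactor needed for dopamine and serotonin, was at 8.50, 8.50 and 8.96 on the controls and 8.09, 7.95 and 8.14 on the exposed arrays (log2 change -0.59, adjusted p = 0.144). Here control 3 was the highest array. The cofactor gene ptps-1 had a change of -0.40 (adjusted p = 0.480).

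Transport and breakdown of the amines gave 1 call, as higher, among the 6 genes measured (16.7%, against 1.06% of all probe sets). For 5 comt genes of that list there was no probe set under their symbols. The amine oxidase family gene amx-1 rose from 4.53 ± 0.17 to 5.42 ± 0.11 (1.85-fold, SD, n = 3, adjusted p = 0.045). Its values were 4.45, 4.72 and 4.42 on the controls and 5.31, 5.53 and 5.42 on the exposed arrays. The groups were far apart relative to their spread, yet the call was lost with any single array left out (adjusted p from 0.053 to 0.151, log2 change from 0.83 to 0.98 against 0.89) and kept in 4 of the 9 other settings. The listed family members amx-2 and amx-3 had changes of -0.05 and 0.14 (adjusted p = 0.935 and 0.781). Whether the enzyme of amx-1 breaks down these amines was not tested. The dopamine reuptake transporter gene dat-1, which is made in dopamine neurons, was at 3.43, 3.59 and 3.13 on the controls and 2.78, 2.55 and 2.67 on the exposed arrays. Its groups were separate, as 13.5% of all probe sets were in this direction. The log2 change of -0.72 (adjusted p = 0.087) was -0.85 without control 3, with an adjusted p of 0.045. The vesicular transporter gene cat-1, used for all 4 amines, had a change of -0.59 (adjusted p = 0.234), and the serotonin reuptake transporter gene mod-5 one of 0.25 (adjusted p = 0.669). The enzymes that define dopamine and serotonin neurons, cat-2 and tph-1, were named for this role after their values were seen. They were at 2.71 to 3.28 and 2.98 to 3.55 over the 6 arrays, with changes of 0.11 and -0.09. Like dat-1 and cat-1, they lay on every array under the median level of all probe sets (3.87), where RMA compresses differences. Whether these genes lie above background was not tested.

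**Figure D4:**
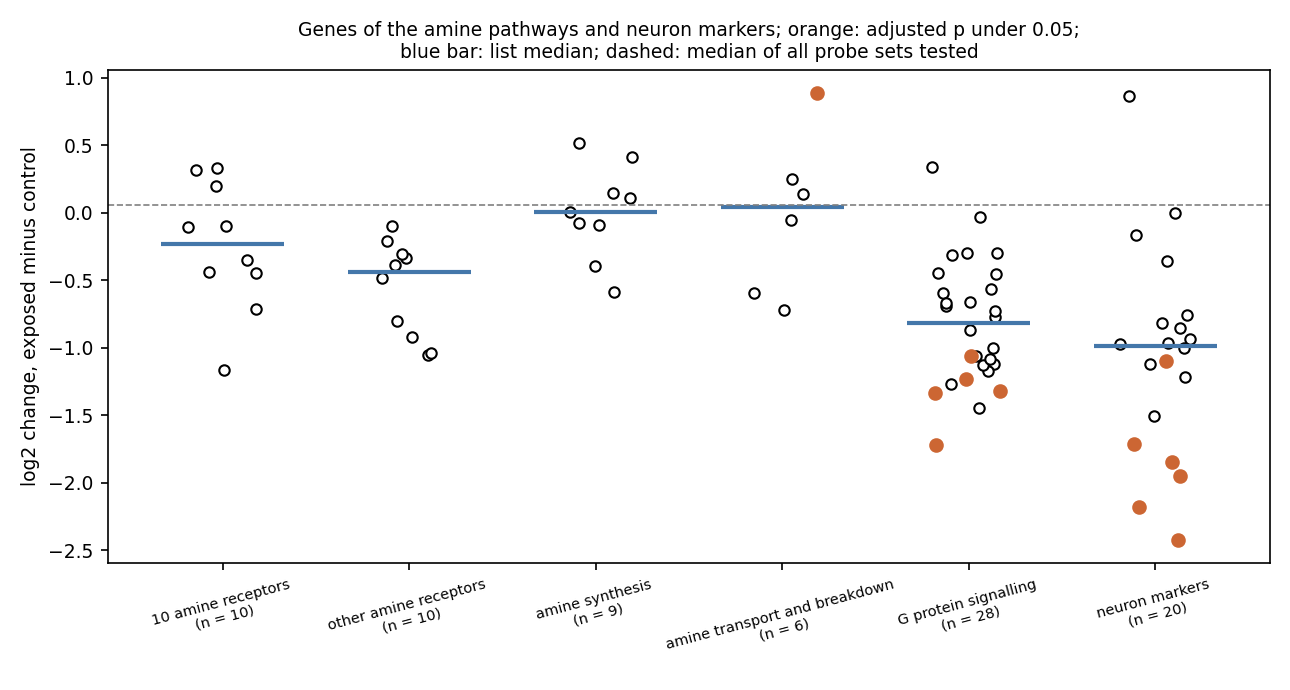
Log2 change of every measured gene of 5 amine pathway lists and of the neuron markers (filled orange where the adjusted p was under 0.05, bar at the list's median, dashed line at the median of all probe sets). Called genes are 1 of 6 in transport and breakdown, 5 of 28 in G protein signalling and 6 of 20 among neuron markers. None are called in the receptor and synthesis lists, and 3.66% of all probe sets were called.

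Downstream of the receptors, 5 of 28 measured genes of G protein signalling fell and 0 rose (17.9%, against 2.6% of all probe sets called lower), with a median log2 change of -0.82 and 27 negative changes. The Gβ5 gene gpb-2 fell from 6.94 ± 0.18 to 5.61 ± 0.16 (adjusted p = 0.0196), and eat-16, an RGS protein that works with it to turn off Gq signalling, fell from 7.84 ± 0.15 to 6.51 ± 0.23 (adjusted p = 0.021). The values of gpb-2 were 6.78, 6.90 and 7.13 on controls 1, 2 and 3 and 5.79, 5.57 and 5.48 on exposed 1, 2 and 3. The groups were well separate, and control 3 was the highest array. The phospholipase C-beta gene egl-8, the target of Gq, fell by 1.06 (adjusted p = 0.034). On the cyclic AMP branch, the adenylyl cyclase gene acy-1 fell by 1.72 (adjusted p = 0.048) and kin-1, the catalytic subunit of protein kinase A, by 1.23 (adjusted p = 0.037), all on the log2 scale.

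The G protein alpha subunits that couple the receptors to these enzymes did not pass. They were chosen for this role after their values were seen: goa-1 (Go) had a log2 change of -0.31 (adjusted p = 0.461), egl-30 (Gq) of -0.66 (adjusted p = 0.103) and gsa-1 (Gs) of -0.87 (adjusted p = 0.096). Without control 1, control 2, exposed 1 or exposed 3 none of the 28 was called. In the same order, 0.221%, 0.179%, 0.164% and 0.89% of all probe sets were called lower there, so no call among 28 is near the background. Without control 3 there were 13, against 5.1% of all probe sets. With equal array medians 2 were called, against 1.52% of all probe sets. The list holds genes used by many other receptors and by muscle and intestine as well as neurons. Its mean followed the arrays as the neuron and body wall muscle markers did: 6.88, 6.94 and 6.44 on the controls and 5.70 to 6.10 on the exposed arrays. Exposed 3 was the lowest exposed array for 20 of the 28, for 10 of 12 body wall muscle markers and for 10 of 20 neuron markers. It was also the lowest for all 12 germline and oocyte markers, whose changes were positive, and for 9981 of the 26192 probe sets tested. Whether these lists moved apart from each other was not tested.

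Patterns over the 6 arrays were compared by the root mean square difference between values centred on each gene's own mean. Among the 10 receptors, dop-1 and dop-3 were most alike (0.20 on the log2 scale), followed by dop-1 and ser-1 (0.21), and ser-7 and tyra-2 were least alike (0.83). Of the 25545 other probe sets with 1 gene, those nearest to tyra-2 were pept-1 (0.07), a peptide transporter of the intestine, unc-68 (0.09), the ryanodine receptor of muscle, and spv-1 (0.09), a regulator of contraction in the spermatheca, where the median over all was 0.81. Nearest to dop-2 were K04H4.8 (0.05), rnt-1 (0.08), a Runx transcription factor gene, and kvs-5 (0.08), of a potassium channel family, against a median of 0.63. Since they were picked for this likeness, their low control 3, such as 2.16 for K04H4.8 beside 2.05 to 2.29 on the exposed arrays, is no result of its own.

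**Figure D5:**
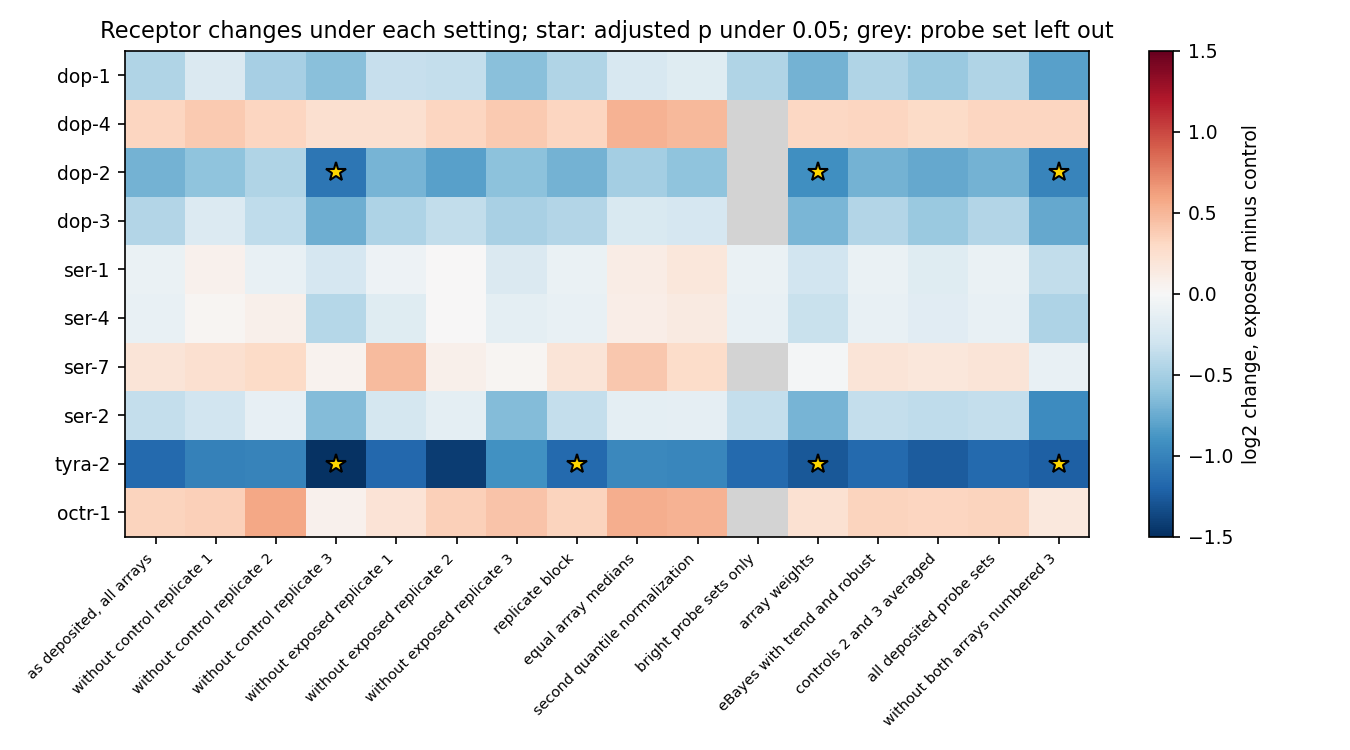
Log2 change of each receptor (colour, exposed minus control) under each way of processing the values or leaving out arrays, with a star where the adjusted p was under 0.05 and grey where the probe set was left out as dim. Stars appear for dop-2 and tyra-2, in columns without control 3, with array weights or with the replicate block, and for no other receptor.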

How the data were processed

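Total RNA of 6 worm samples was measured on 1-colour Affymetrix arrays as amplified cDNA carrying biotin, per the labels' protocols. The deposited values are log2 expression values, which, per the submitters' processing notes, the authors made with RMA in Affymetrix Expression Console. RMA corrects for background, brings the arrays to 1 distribution and reads the probes of a set as 1 value. The medians of the probe sets tested still differed between the arrays, from 3.70 to 3.98. No version or genome build is stated in the submitters' notes, and coordinates are left out. That the scale is log2 follows from the range of the values.

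Of 29317 probe sets, 26192 have a gene in the platform annotation and entered the test, 25546 of them with 1 gene. Gene identifiers of 25495 matched NCBI RefSeq (WBcel235, for names only). The fit per probe set used limma 3.58.1 (lmFit, eBayes, R 4.3.3), exposed against control on 3 arrays each, two-sided, with Benjamini-Hochberg adjustment over all 26192 and a threshold of 0.05. Single-gene adjusted p-values come from this fit. Named genes are all 10 receptors, and every called gene and up to 4 with the smallest p of each amine pathway list. Up to 3 of each marker list, and the 3 probe sets nearest in pattern to each of the 2 receptors with the smallest p, are named too. The genes cat-2, tph-1, goa-1, egl-30 and gsa-1 were added for their roles after their values were seen, and tbb-1 for its direction. The genes amx-2 and amx-3 were added as listed family members of amx-1. The marker lists of intestine (9 measured, 2 lower), hypodermis (10, 1 lower), pharyngeal muscle (6, 3 lower) and sperm (10, 4 higher) were counted too. Of all probe sets, 2.6% were called lower and 1.06% higher. Receptors and lists were chosen with earlier results of these data known, so no test over a list was made. Probe set sequences were not analysed here.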

Additional observations from a re-analysis of the deposited data

How the results depend on the processing

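With 1 array left out, calls in the whole table ranged from 49 to 1996 (43 to 1335 lower, 6 to 661 higher), receptors called lower from 0 to 2 and the receptors' median change from -0.53 to -0.07. In the same settings the other amine receptors called lower ranged from 0 to 4, amine synthesis and transport genes from 0 to 1 lower and 0 to 0 higher (1 with all arrays), G protein genes from 0 to 13 and neuron markers from 0 to 16. Array weights gave 3473 calls (2143 lower, 1330 higher), with 2 receptors, 4 other receptors, 1 transport gene, 15 G protein genes and 16 neuron markers lower. Leaving out both arrays numbered 3, chosen after seeing the data, gave 2317 calls (1490 lower, 827 higher), with 2 receptors, 3 other receptors, 12 G protein genes and 15 neuron markers lower and a median receptor change of -0.62. Equal array medians gave 397 lower and 598 higher calls (60.1% higher, against 29.0% as deposited and 41.5%, with 427 higher, after a second quantile normalization), 2 G protein genes lower, and a median change of all probe sets of 0.26. The call of amx-1 was also lost (0 genes higher) with the replicate block, with trend and robust, with controls 2 and 3 averaged, over all deposited probe sets and without both arrays numbered 3.

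Signs turned for ser-1 (0.11 with equal medians, 0.17 after the second normalization, -0.25 to 0.068 with 1 array left out), ser-4 (0.10, 0.13 and -0.43 to 0.077 in the same order) and ser-7 (-0.027 with array weights, -0.11 without both arrays numbered 3). They also turned for tdc-1 (-0.076 to 0.75 with 1 array left out) and mod-5 (-0.058 to 0.40, and -0.0041 without both arrays numbered 3). Except where an alternative has fewer arrays or probe sets, the cause was not tested. With replicate numbers as a replicate block, 978 probe sets and 1 receptor passed (tyra-2, adjusted p = 0.043). The deviations of same-numbered arrays correlated at 0.14, 0.08 and 0.25, and control 2 correlated better with exposed 1 (0.19), so the numbers are not taken as pairs. Among bright probe sets alone, 5 receptors were tested and 0 passed, where 7.86% of these 13096 probe sets did. The precision is limited by 3 arrays per group.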
